A study of Mus musculus with 6 samples.

Results

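The Dlk1-Dio3 domain is an imprinted region of mouse chromosome 12, and 6 of its transcripts are described here: the noncoding RNAs Meg3, Rian and Mirg, the protein-coding genes Dlk1 and Dio3, and Dio3os, an RNA transcribed opposite to Dio3. The members were taken as every probe set annotated to exactly 1 of these symbols. A probe set is a group of short array probes read as 1 value. The rule found 20 of the 45101 probe sets in the table: 11 for Meg3, 4 for Rian, 2 for Mirg, 2 for Dlk1, 1 for Dio3os and 0 for Dio3. Dio3 was therefore not measured under its own name. The domain was picked because Meg3 and Rian were among the steepest falls between the genotypes compared here, so the members' differences between genotypes are given as descriptions without a p-value.

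RNA came from R1 mouse embryonic stem cells of the (129X1 x 129S1)F1 background, with 3 arrays of Sirt1-/- cells (knockout, KO) and 3 arrays of Sirt1+/+ cells (wild type, WT). Sirt1 encodes an NAD-dependent protein deacetylase. Cells of both genotypes grew on gelatin in serum medium with LIF, which keeps mouse stem cells undifferentiated. The labels give 1 knockout source and 1 wild-type source and do not say whether they are clones or whether the 3 samples of a genotype were separate cultures, so Sirt1 loss and any other difference between these sources cannot be told apart, and p-values measure a spread that may be technical.

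Imprinted genes are expressed from the allele of 1 parent. In this domain Dlk1, Rtl1 and Dio3 are expressed from the paternal allele, and Meg3, Rian and Mirg from the maternal allele. The maternal RNAs are transcribed in the same direction, and Rian and Mirg carry many small nucleolar RNAs and microRNAs. A region between Dlk1 and Meg3 that is methylated on the paternal allele controls which genes are active. In mouse pluripotent stem cells the maternal RNAs of the domain are known for differing between lines. The arrays do not separate the parental alleles.

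Sequences of the region show what is transcribed from it. The Meg3 and Dlk1 promoter windows are shown because these genes lie next to each other and are read from opposite parental alleles. Each window runs from 250 bases before to 50 bases after the RefSeq start, on build GRCm38.p6, 5′ to 3′ on the plus strand. Capitals mark motifs searched on either strand.
Meg3, chr12:109540746-109541045: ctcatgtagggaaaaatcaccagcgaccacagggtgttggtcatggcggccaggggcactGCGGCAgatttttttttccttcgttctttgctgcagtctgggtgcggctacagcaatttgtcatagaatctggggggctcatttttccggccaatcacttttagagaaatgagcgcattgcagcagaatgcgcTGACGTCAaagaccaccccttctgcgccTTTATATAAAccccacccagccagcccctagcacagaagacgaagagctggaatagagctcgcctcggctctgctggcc
Dlk1, chr12:109452573-109452872: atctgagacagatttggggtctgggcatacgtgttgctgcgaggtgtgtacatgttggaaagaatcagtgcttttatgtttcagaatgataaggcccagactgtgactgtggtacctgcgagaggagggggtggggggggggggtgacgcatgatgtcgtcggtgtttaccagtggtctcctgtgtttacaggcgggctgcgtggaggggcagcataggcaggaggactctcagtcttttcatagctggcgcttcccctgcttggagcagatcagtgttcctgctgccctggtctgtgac
In the Meg3 window the capitals mark GCGGCA, which is TGCCGC on the other strand (the hexamer bound by ZFP57, a zinc finger protein that protects imprints), from base -190 relative to the start. They also mark TGACGTCA, a cAMP response element, from base -57, and TATAAA on each strand from bases -29 and -25, which overlap. In 32851 promoter windows of the same length, TGCCGC was found in 11.6%, TGACGTCA in 1.79% and TATAAA in 13.6%. GGGCGG (GC box, in 35.7% of windows) and GCCATNTT (YY1, in 6.05%) were not in this Meg3 window. None of the 5 motifs was in the windows of Dlk1, Rian or Mirg or in a second Meg3 window, and the Dio3 and Dio3os windows held GGGCGG, that of Dio3 also TATAAA. The first Meg3 window held 13 CpG dinucleotides, that of Dlk1 9, Mirg 10, Rian 0, Dio3 25 and Dio3os 53, against a median of 7 over all windows. A match is a description of letters and does not show binding.

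The region between Dlk1 and Dio3 held 61 annotated microRNA genes and 19 small nucleolar RNA genes. The RefSeq table used here gave 58 hairpins with 114 mature sequences, of which 3 lay inside Meg3, 6 inside Rian and 19 inside Mirg. The arrays did not measure mature microRNAs. Examples are shown because they are cut from the RNAs whose levels follow: miR-770 lies in Meg3, miR-370 in Rian and the other 3 in Mirg. Capitals mark the seed, bases 2 to 8.
mmu-miR-770-5p: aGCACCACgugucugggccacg
mmu-miR-370-3p: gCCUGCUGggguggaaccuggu
mmu-miR-410-3p: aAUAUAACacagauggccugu
mmu-miR-453: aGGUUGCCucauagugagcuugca
mmu-miR-496a-5p: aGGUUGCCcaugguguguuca
The last pair, both from Mirg, share the seed GGUUGCC. The 114 mature sequences had 104 different seeds.

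The arrays and cells were checked first. Array medians of the deposited log2 levels were 4.51 to 4.55 in KO and 4.52 to 4.56 in WT, and Pearson's r over probe sets was 0.996 to 0.997 between arrays of a genotype and 0.989 to 0.991 between genotypes. Sirt1 read 8.05 ± 0.14 in KO and 10.16 ± 0.06 in WT (SD, n = 3 each), and it fell by 2.11 (limma, adjusted p = 3.98e-05 after Benjamini-Hochberg). The sources used here do not say where its probe set lies relative to the deleted part. All 12 embryonic stem cell markers lay far above the median in both genotypes, among them Pou5f1 at 12.39 ± 0.02 in KO and 12.29 ± 0.04 in WT (SD, n = 3 each), and 8 of the 12 fell. Over all genes, 17.5% fell. Nanog fell most of these markers, by 0.90. The Actb 3′ minus 5′ difference, a sign of RNA integrity, was 0.89, 0.90 and 0.90 in KO and 1.01, 1.02 and 0.90 in WT.

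The 3 maternally expressed noncoding RNAs were far lower in KO cells on their brighter probe sets. The arrays of both genotypes overlapped on some other probe sets of Meg3 and on those of Dlk1 and Dio3os. Dlk1 was read by dim probe sets only. Of the 20 probe sets, 13 were lower in KO in the limma fit over all probe sets (Benjamini-Hochberg adjusted p under 0.05) and none was higher, where 10.3% of all 45037 non-control probe sets were called lower, 9.46% higher and 19.8% either way. In 14 of the 20, all KO arrays lay below all WT arrays, against 17.8% of all probe sets, and in none did all KO arrays lie above, against 18.1%. Differences of -1 or below were seen for 11 of the 20, against 0.937% of all probe sets. The median log2 difference of the 20 was -1.47, against 0.01 over all probe sets. Because the domain was chosen from this contrast, these shares describe the members and test nothing. In bulk RNA, fewer cells with a transcript and less of it per cell cannot be told apart.

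**Figure D1:**
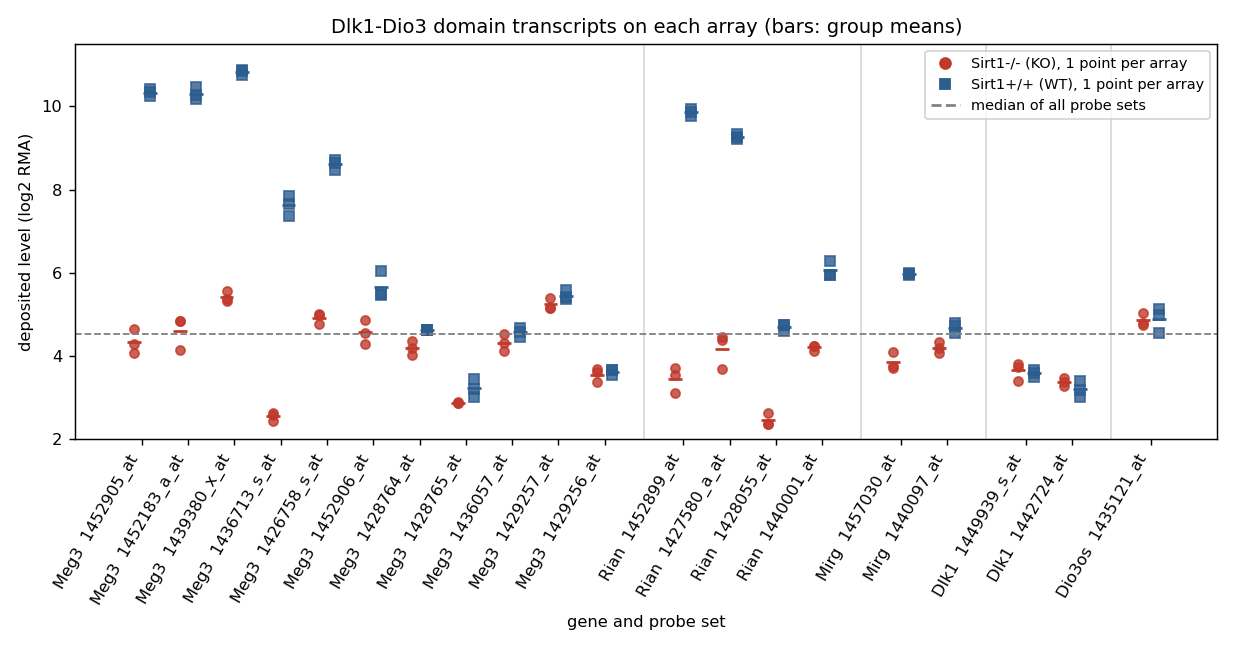
Deposited level (log2 RMA, vertical axis) of every probe set of the domain (horizontal axis, grouped by gene) on each array, with KO as circles and WT as squares, bars at group means and a dashed line at the median of all probe sets. For 7 probe sets of Meg3 and Rian the KO values lie at least 3.46 log2 units below the WT values, while Dlk1, Dio3os and some Meg3 probe sets overlap.

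Meg3, a long RNA that lies nearest to Dlk1 among the maternal transcripts and is known as a growth-suppressing RNA, gave the most probe sets. Probe set 1452905_at read 4.29, 4.65 and 4.08 in the KO arrays, against 10.245, 10.34 and 10.41 in the WT arrays. No KO array came within 5.60 log2 units of a WT array. The difference was -5.99 (SE 0.14), or 63.8-fold lower array signal in KO. The table has no detection call, and this KO mean (4.34) lay below the median of all probe sets, so this and the folds that follow are ratios of array signal and do not measure RNA amounts. Probe set 1452183_a_at read 4.85, 4.84 and 4.14 in KO and 10.27, 10.18 and 10.46 in WT, a difference of -5.69 (SE 0.20). KO replicate 3 was the lowest array on both of these probe sets.

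Probe set 1439380_x_at of Meg3 read 5.56, 5.34 and 5.37 in KO and 10.84, 10.76 and 10.88 in WT, which was 42.4-fold lower in KO. Some of its probes can match other sequences, as the x in its name marks. It is the brightest Meg3 probe set, and its KO level stayed above the median of all probe sets, 4.53. Probe set 1436713_s_at, on the other hand, read 2.45, 2.58 and 2.64 in KO, below the lower quartile of all probe sets (3.20), against 7.65, 7.37 and 7.85 in WT. Its difference was -5.07 (SE 0.13). Probe set 1426758_s_at read 4.999, 5.003 and 4.771 in KO and 8.72, 8.46 and 8.64 in WT, a difference of -3.68 (SE 0.10). The s in the last 2 names marks probes shared by several transcripts.

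The other 6 Meg3 probe sets changed far less. Probe set 1452906_at read 4.88, 4.55 and 4.29 in KO and 5.46, 6.05 and 5.48 in WT, a difference of -1.09 (SE 0.20). The groups were separate for 1452906_at, 1428764_at (-0.44) and 1428765_at (-0.34), and overlapped for 1436057_at (-0.25), 1429257_at (-0.21) and 1429256_at (-0.07). The last 4 of these did not pass in the fit. Probe sets of the same RNA thus differed in their change even where they shared a source. The 3 that were designed from the same cDNA record, 1452905_at, 1428764_at and 1428765_at, had differences of -5.99, -0.44 and -0.34, with WT means of 10.33, 4.63 and 3.23. A second record gave 1452183_a_at and 1426758_s_at (-5.69 and -3.68), and another gave 1429257_at and 1429256_at (-0.21 and -0.07). The sources used here do not place the probe sets along the transcript.

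Rian, the next of the members along the chromosome, hosts small nucleolar RNAs of the box C/D class. All 4 of its probe sets were lower in every KO array. Probe set 1452899_at read 3.12, 3.55 and 3.72 in KO, against 9.94, 9.87 and 9.78 in WT. The groups were 6.06 log2 units apart at their nearest arrays, and the difference of -6.40 (SE 0.15), or 84.4-fold lower array signal in KO, was the steepest of all probe sets on this scale. Its KO mean of 3.46 lay near the lower quartile of all probe sets, 3.20, so no ratio of RNA amounts can be read from it. Probe set 1427580_a_at read 4.38, 4.46 and 3.69 in KO and 9.35, 9.22 and 9.25 in WT, a difference of -5.09 (SE 0.20), with KO replicate 3 lowest. The KO arrays spread more widely on it than the WT arrays, with SDs of 0.42 and 0.06.

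The dimmer Rian probe sets differed by less. Probe set 1428055_at read 2.36, 2.64 and 2.38 in KO and 4.60, 4.75 and 4.74 in WT, a difference of -2.24 (SE 0.09). Its KO values lay below the lower quartile of all probe sets. Probe set 1440001_at read 4.25, 4.24 and 4.12 in KO and 6.29, 5.96 and 5.94 in WT, a difference of -1.86 (SE 0.11).

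Mirg, the host RNA of a large microRNA cluster and the most distal of the 3 maternal RNAs, was lower on both of its probe sets. Probe set 1457030_at read 3.77, 3.72 and 4.09 in KO and 5.98, 5.94 and 5.99 in WT. The WT arrays lay within an SD of 0.03 and all KO arrays were at least 1.85 log2 units below them. The difference was -2.11 (SE 0.10), or 4.32-fold lower in KO. Probe set 1440097_at read 4.20, 4.33 and 4.06 in KO and 4.78, 4.56 and 4.72 in WT, a difference of -0.49 (SE 0.09) with groups 0.23 log2 units apart.

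Dlk1, a transmembrane protein of the Delta family that is known to restrain adipocyte differentiation, was read by 2 dim probe sets. Probe set 1449939_s_at read 3.75, 3.81 and 3.40 in KO and 3.68, 3.59 and 3.49 in WT. Probe set 1442724_at read 3.48, 3.39 and 3.27 in KO and 3.18, 3.40 and 3.01 in WT. The differences were 0.07 (SE 0.12) and 0.18 (SE 0.11), the groups overlapped on both, and all values lay below the median of all probe sets. Neither probe set passed in the fit, which does not show that Dlk1 was unchanged. At this signal a fall could be missed, while a rise had room to show.

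Dio3os was read by 1435121_at alone. It read 4.79, 5.04 and 4.75 in KO and 4.99, 5.13 and 4.55 in WT, a difference of -0.03 (SE 0.16), and the groups overlapped. The WT arrays varied most, with an SD of 0.30 against 0.16 in KO. Dio3, the deiodinase that inactivates thyroid hormone, had no probe set of its own name, and Rtl1, a retrotransposon-derived gene read from the paternal allele, had none either.

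The size of the difference went with the brightness of the probe set in WT. All 7 member probe sets with a WT mean above the upper quartile of all probe sets (7.11) had differences of -3 or below. The other 13 members ranged from -2.24 to 0.18. On the whole array, 11259 probe sets had a WT mean above that quartile, and 15 of them had differences of -3 or below. The WT mean is itself a term of the difference, so this link is partly built in and tests nothing. A dim probe set has little room to fall, so a small difference on it does not show a smaller change of the RNA. Over all probe sets, 18 (0.04%) had differences of -3 or below, and 7 of these were members, 5 of Meg3 and 2 of Rian. Of the other 11, 5 belonged to other named genes, 2 carried several symbols and 4 carried none.

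**Figure D2:**
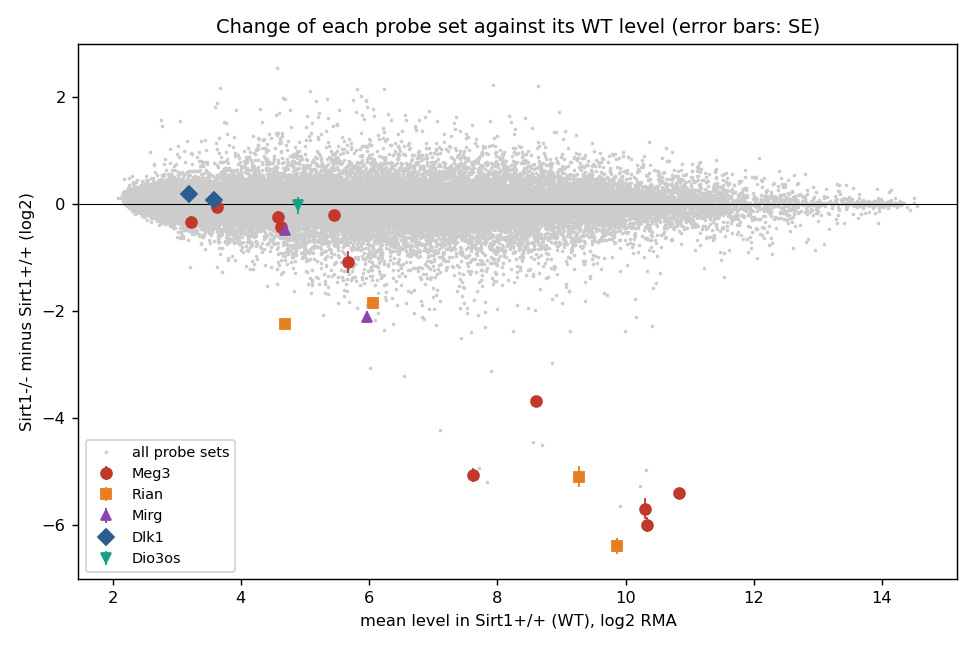
Log2 difference of KO minus WT (vertical axis, SE as error bars on the domain's probe sets) against the mean WT level (horizontal axis, log2 RMA), with all probe sets in grey. The 5 brightest Meg3 and the 2 brightest Rian probe sets lie between -6.40 and -3.68, Mirg at -2.11 and -0.49, and Dlk1 and Dio3os near 0.

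The 5 other named genes whose profile came nearest to that of Meg3 were Snhg14, Uty, Stra8, Serpinb6c and Srgn. Likeness was the Euclidean distance over the 6 arrays between log2 deviations from the WT mean, on each gene's brightest probe set. Rian was nearer than any of them, at 0.80, and Mirg lay at 5.72, Dio3os at 9.33 and Dlk1 at 9.49. Snhg14, the host RNA of small nucleolar RNAs in the imprinted Prader-Willi region, lay at 1.22. It read 2.24, 3.09 and 3.02 in KO and 7.86, 7.38 and 7.91 in WT. Uty, a Y-linked gene, lay at 2.16 and read 2.52, 2.96 and 3.16 in KO and 7.21, 6.86 and 7.23 in WT. Stra8, a retinoic acid-induced germ cell gene, Serpinb6c, a serpin, and Srgn, a proteoglycan, lay at 4.22, 5.22 and 5.25. With 3 arrays a genotype, this order reflects the size of the fall above all.

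Read on the brightest probe set of each, genes beside the domain on chromosome 12 changed little. Besides the members, 3110009F21Rik, a noncoding transcript between Mirg and Dio3os, was the 1 gene of the interval with a probe set of its own. It read 2.79 ± 0.14 in KO and 2.58 ± 0.10 in WT (SD, n = 3 each) and did not pass (limma, Benjamini-Hochberg adjusted p = 0.133). Of it and the 10 nearest protein-coding genes on each side, 21 in all, 2 rose and 4 fell, where 12.5% of all 18193 named genes rose, 17.5% fell and 30% did either. Their median log2 difference was -0.04, against -0.01 over all genes.

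Of the 10 genes before Dlk1, Wdr25, the nearest, rose by 0.29 (limma, Benjamini-Hochberg adjusted p = 0.0328), and none fell. The same probe set did not pass in the limma fit over all probe sets (adjusted p = 0.0509). Wdr25 kept the call in 5 of 13 alternatives, and lost it without KO replicate 1, KO replicate 3, WT replicate 1 or WT replicate 3. The call was also lost with a robust variance model and intensity trend, without moderation, with a replicate block and at an adjusted p under 0.01. The others were Hhipl1, Cyp46a1, Eml1, Evl, Degs2, Yy1, Slc25a29, Slc25a47 and Wars, with differences from -0.18 to 0.11. Yy1, a zinc finger transcription factor, read 11.08 ± 0.07 in KO and 10.97 ± 0.02 in WT (SD, n = 3 each) on its brightest probe set and did not pass, while another of its probe sets, 1435824_at, fell by 0.68. Of the 10 genes beyond Dio3, Dync1h1, the heavy chain of cytoplasmic dynein, rose by 0.33 (limma, adjusted p = 0.00226). Zfp839, a zinc finger gene, fell by 0.63 (limma, adjusted p = 0.000355). Its arrays read 8.20, 8.23 and 8.11 in KO and 8.83, 8.81 and 8.78 in WT, so the groups were separate.

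The chaperone Hsp90aa1 fell by 0.17, Wdr20 fell by 0.20 and the kinase Mok fell by 0.16 (adjusted p = 0.0249, 0.0249 and 0.0333 in limma over genes). All 3 lost the call when arrays were centred on their medians. Those probe sets did not pass in the limma fit over all probe sets, with adjusted p of 0.0664, 0.0569 and 0.0867. The other 5 genes beyond Dio3, Ppp2r5c, 1700001K19Rik, Cinp, Tecpr2 and Ankrd9, did not pass on their brightest probe sets. Ppp2r5c, a phosphatase subunit next to Dio3, had a difference of -0.12 on its brightest probe set. In the fit over all probe sets, more of its probe sets fell than rose. Probe sets 1434205_at, 1434206_s_at, 1425725_s_at and 1425726_x_at fell by 0.90, 0.86, 0.62 and 0.47, and 1427003_at alone rose, by 0.31. Leaving out any of the 6 arrays cut the count of 6 genes to between 2 and 3, and it was 2 without KO replicate 1. Dync1h1 and Zfp839 passed in all 13 alternatives run on this count with the brightest probe set.

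**Figure D3:**
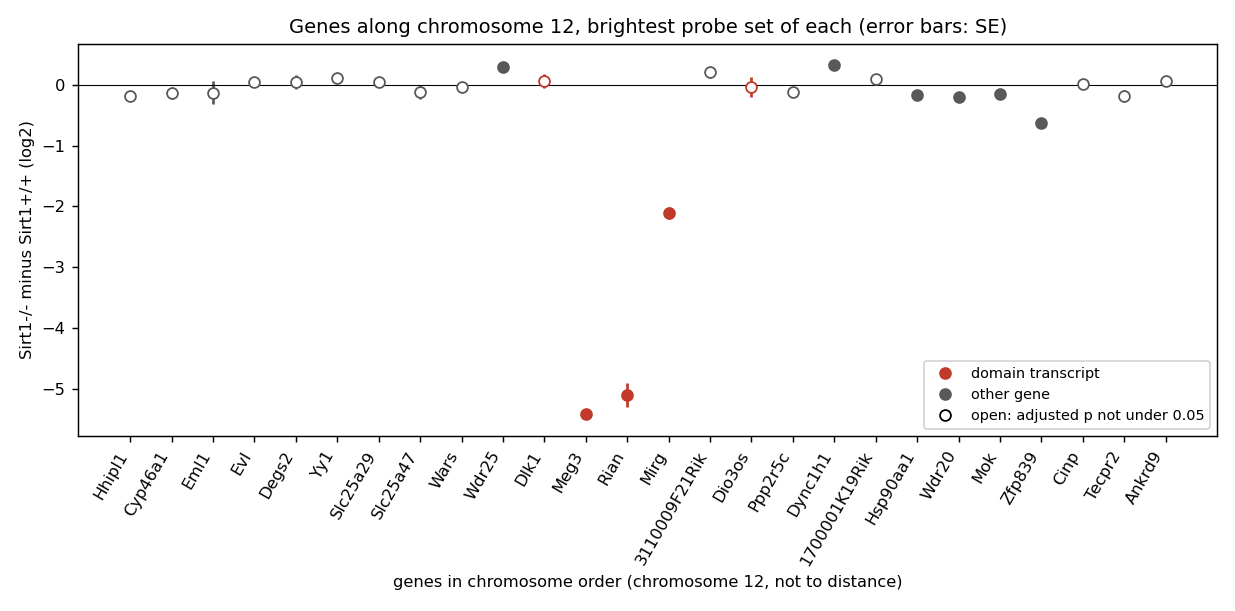
Log2 difference of KO minus WT (vertical axis, error bars SE) of the brightest probe set of each gene in order along chromosome 12 (horizontal axis, not to distance), with the domain's transcripts in red and filled points for adjusted p under 0.05. Meg3, Rian and Mirg lie at -5.41, -5.09 and -2.11 and every other gene between -0.63 and 0.33.

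RNAs of proteins known to set or guard imprints changed in both directions. Among the 24 measured, 3 rose and 9 fell, while 12 did not pass, with a median log2 difference of -0.11. Over all genes, 12.5% rose and 17.5% fell. Dppa3, which shields maternal DNA methylation after fertilisation, read 6.86, 6.92 and 6.96 in KO and 5.21, 5.27 and 5.16 in WT, a rise of 1.70 (SE 0.05; limma, Benjamini-Hochberg adjusted p = 2.89e-05). The DNA methyltransferase Dnmt3a rose by 0.79. Kdm1b, a histone demethylase needed for imprints in oocytes, fell by 0.71, and Jarid2, a partner of Polycomb repressive complex 2, fell by 0.45. 

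Imprinted genes of other regions changed in both directions, where 12.5% of all genes rose and 17.5% fell. Of 50 measured, 9 rose, 13 fell and 28 did not pass, with a median of -0.00. Snhg14 fell by 4.93, Mkrn3, a gene of the Prader-Willi region, fell by 1.37 and the signal peptide peptidase H13 fell by 1.24. Sgce, a sarcoglycan gene next to Peg10, rose by 1.22. Of 13 measured noncoding host genes, which like Meg3 yield small RNAs or are long noncoding RNAs, 5 rose and 4 fell, with a median of 0.08. Beside Snhg14, Neat1 fell by 0.86 and Snhg12, a small nucleolar RNA host, rose by 0.93. Xist, the RNA of X inactivation, fell by 0.88. No test was made of whether the domain's transcripts differ from these lists.

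**Figure D4:**
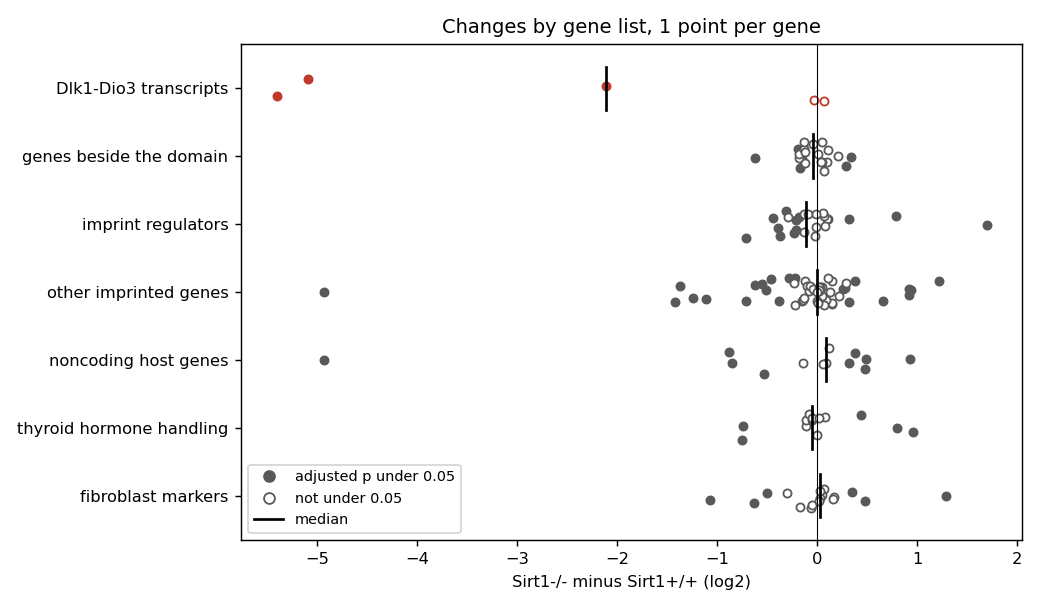
Log2 difference of KO minus WT (horizontal axis) of each gene on its brightest probe set, by gene list (vertical axis), with filled points for adjusted p under 0.05 and a black bar at the median. The Dlk1-Dio3 transcripts have a median of -2.11 over 5 genes, and the medians of the other 6 lists drawn lie between -0.11 and 0.08. The endoderm, stem cell and neural markers and the relatives of the domain's genes are not drawn. Their medians were -1.06, -0.26, 0.08 and -0.07.

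Genes linked to the domain's proteins were read next, where 30% of all genes passed. Of 13 measured genes of thyroid hormone handling, on which Dio3 acts, 3 rose and 2 fell (median -0.05). Slc7a5 and Slc3a2, the subunits of an amino acid transporter that also carries thyroid hormone, rose by 0.96 and 0.80, and the receptor Thra rose by 0.44. Klf9, a thyroid hormone target, fell by 0.74. Of 8 measured relatives of the domain's genes, 2 rose and none fell in limma: Dll1, a Notch ligand of the Delta family, by 0.75, and Peg10, a retrotransposon-derived gene like Rtl1, by 0.93. Peg10 was named after its values were seen.

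Markers of other cell types that could carry these RNAs were read beside the domain, where 12.5% of all genes rose and 17.5% fell. Of 17 measured fibroblast markers, which would report feeder cells, 3 rose and 3 fell, and their mean level was 4.96 to 5.07 in the KO arrays and 5.02 to 5.05 in the WT arrays. The collagens Col1a1, Col1a2 and Col3a1 read 3.44, 3.04 and 2.74 in KO and 3.61, 3.34 and 2.59 in WT, below the median of all probe sets. Vim, also expressed by stem cells, rose by 1.28, Twist1 rose by 0.48 and Fn1 rose by 0.35. Thy1 fell by 1.07, the collagen Col5a1 fell by 0.63 and the receptor Pdgfrb fell by 0.50. All of these risen and fallen markers lay above that median in both genotypes. Of 15 endoderm markers 9 fell and none rose in limma, with a median of -1.06 and mean levels of 5.44 to 5.57 in KO arrays and 6.37 to 6.43 in WT arrays. Cubn, an endocytic receptor of visceral endoderm, fell by 2.24 and the endocytic adaptor Dab2 fell by 1.80. The receptor Pdgfra fell by 1.52 and the basement membrane collagen Col4a2 fell by 1.52, and 2 of the 15 markers lay below the median of all probe sets in both genotypes. Gata4, Foxa2, Afp, Ttr, Apoa1 and Sparc did not pass, and Sparc read 10.37 in KO and 10.26 in WT. Thus 9 of the 15 endoderm markers, not the whole list, fell together with Meg3, Rian and Mirg. Their part in that result was not tested. Of 10 neural markers 2 rose and 2 fell. Tubb3, a neuronal tubulin, rose by 0.76 and the filament gene Nes rose by 0.43, while Map2 and the dimmer Dcx fell by 0.59 and 0.21. Without WT replicate 1, 2 neural markers in all passed.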

How the data were processed

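Total RNA of 3 Sirt1-/- and 3 Sirt1+/+ samples was measured on 1 Affymetrix array each. The deposited log2 levels were produced by the authors; the submitters' processing notes name RMA and Partek 6.5. The sources used here give no settings, and the log2 scale was taken from the range. RMA removes background, makes array distributions equal and gives 1 value per probe set. Its table holds no detection call, so no probe set was declared absent. The values were used as deposited.

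Control probe sets (64) were dropped. Of the remaining 45037, 34945 carried 1 symbol, 932 several and 9160 none. Probe sets, and separately 18193 genes on their brightest probe set (highest mean over 6 arrays), were tested between genotypes in R 4.3.3 with limma 3.58.1 (lmFit and eBayes, two-sided). Benjamini-Hochberg adjustment covered each whole table, and calls were made under 0.05. Gene order came from RefSeq on GRCm38.p6, which 18031 genes matched by Entrez identifier, and sequences from RefSeq on the same build, where all 6 members had a promoter window. No build is named for the array annotation.

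The members, gene lists and tests were chosen with earlier results of these data known. Named were all member probe sets, Sirt1, all stem cell markers, genes beside the domain, the 5 nearest profiles with no predicted or clone symbol, and of each list up to 4 called genes with the largest change and a brighter group mean above the median gene. Other genes were named after their values were seen. On simulated arrays with 45037 probe sets, 50 falls of each size were recovered at 38% for a log2 fall of 0.5, 80% for 1, 98% for 2 and 100% for 4, with 8 false calls. The simulated arrays held no other changes, while 8912 real probe sets were called, so the adjustment was stricter in the simulation. Its shares therefore do not carry over to the real arrays. The deviations of like-numbered arrays correlated at 0.05, -0.07 and 0.19 over probe sets, which are not independent replicates, so numbers were not used as pairs. The number of arrays limits the precision.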

Additional observations from a re-analysis of the deposited data

How the results depend on the processing

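The alternatives were quantile normalization repeated, arrays centred on medians, removal of the dimmest 40%, a robust variance model with an intensity trend, a linear model without moderation, a block for the replicate number, arrays left out 1 at a time, an adjusted p under 0.01 and, for genes, the mean of all probe sets. Member differences can move only under another scaling or with an array left out, since the other alternatives keep the group means. They moved by less than the SD between arrays in all 255 recomputed values, which leaving out 1 of 3 arrays could not exceed, so this bears on the scalings alone. The count of 13 member probe sets called lower ranged from 10, without moderation, to 14, and was 13 whichever array was left out. With the replicate number as a block it was also 13, and the block cut genes beside the domain to 2 of 21 but moved no other count by over 1.5 times. Genes beside the domain numbered 6 in the limma fit, 3 with arrays centred on medians, 2 at an adjusted p under 0.01, and 2 to 3 with an array left out. At an adjusted p under 0.01, 4825 of the 8912 probe sets and 3356 of the 5462 genes remained called. Neural markers called numbered 4, and were 6 under either other scaling, 2 without the dimmest 40%, 2 without moderation, 1 at an adjusted p under 0.01 and 2 to 4 with an array left out. Relatives of the domain's genes called fell from 2 to 1 without the dimmest 40%, which left 5 tested. The causes of the other shifts were not tested. Of 891 recomputed values of other named genes, 54 lost the call, 14 gained it and 0 called values reversed. Dim probe sets limit what can be read of Dlk1.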
